A study of Rattus norvegicus with 42 samples.

Results

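Genes of alternative activation and of the chitinase and resistin-like families were followed through the lungs of silica-exposed rats. They are Retnla, Chia, Chit1, Chi3l1, Arg1, Mrc1, Alox15, Ccl17 and Ccl22, taken by symbol from the count tables, 9 of the 30044 genes that the tables share. The study asked how a high-fat diet bears on the lung toxicity of inhaled silica. Pieces of lung from 42 rats were profiled by total RNA sequencing after depletion of ribosomal RNA, with 1 library per rat. All rats were male Fischer F344/DuCrl animals, 3 months old at purchase, and all ate their assigned diet for 2 weeks before exposure and from then on. The high-fat silica rats took 60% of their calories as fat and inhaled crystalline silica at 15 mg/m3 for 6 hours a day on 5 days; 5 were examined 3 months and 6 were examined 9 months after exposure. The high-fat air rats had the same diet and inhaled air, with 5 rats at 3 months and 6 at 9 months. The regular-diet silica rats took 18% of their calories as fat and inhaled the same silica, with 5 rats at each time. The regular-diet air rats inhaled air, with 4 rats at 3 months and 6 at 9 months. Rats are numbered within a group only to name them, and p-values measure the spread between these rats. Time after exposure, the age of the rats and the deposited table change together and cannot be told apart.

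Alternative activation is the state that macrophages take on when interleukin 4 or interleukin 13 acts through the receptor chain Il4r and the transcription factor Stat6. Chitinases cleave chitin, a polymer of fungi, arthropods and worms, and chitinase-like proteins keep the fold but have lost the cleaving activity. In mouse lung, Retnla, Arg1, Mrc1 and chitinase-like genes are the usual readouts of this state, and epithelial cells as well as macrophages make some of them. Because whole lung tissue was sequenced, fewer cells of a type and less RNA per cell cannot be told apart.

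Levels are CPM, the counts scaled to a common library size by TMM, which compares 1 gene between rats but not genes with each other, since gene length was not used. The libraries held 5143424 to 8259635 counts at 3 months and 3078216 to 8319382 at 9 months. Tests were edgeR quasi-likelihood fits over all genes of a time point, with p-values adjusted by the Benjamini-Hochberg method, and a gene is said to have risen or fallen where the adjusted p is below 0.05. Fold changes carry the standard error of their log2 value. Of the 9 genes, 7 had enough counts to be tested at 3 months and 9 at 9 months; the chemokines Ccl17 and Ccl22 were under the filter at 3 months.

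Silica raised most of these genes on both diets, and Chit1 and Alox15 were the members that went down. Retnla, Chia, Chi3l1 and Arg1 were higher with silica in all 4 comparisons of silica with air. With the regular diet 6 of the 7 tested members passed at 3 months, 5 higher and 1 lower, where 16.8% of all tested genes passed (10.2% higher and 6.6% lower). With the high-fat diet 6 of 7 passed at 3 months, 4 higher and 2 lower, against 17.4% of all genes (9.23% higher and 8.19% lower). Of the 9 tested at 9 months 8 passed on the regular diet, 7 higher and 1 lower, against 45.1% of all genes (24.5% higher and 20.6% lower). All 9 passed at 9 months on the high-fat diet, 7 higher and 2 lower, against 51.6% of all genes (26.7% higher and 24.9% lower). The share of ribosomal RNA in the libraries, described with the diet results, was also higher in every silica than in every air rat of a diet at 9 months; with that share as a covariate 8 of the 9 members were called on each diet. The median log2 fold change of the tested members was 1.21 and 1.27 at 3 months on the regular and the high-fat diet and 1.88 and 1.90 at 9 months, while that of all tested genes lay between -0.01 and 0.00. Silica and air rats shared no part of their CPM range for 14.7% of all tested genes on the regular diet and 12.9% on the high-fat diet at 3 months, and for 23.8% and 29.6% at 9 months; the overlap for each member is given with its values.

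**Figure D1:**
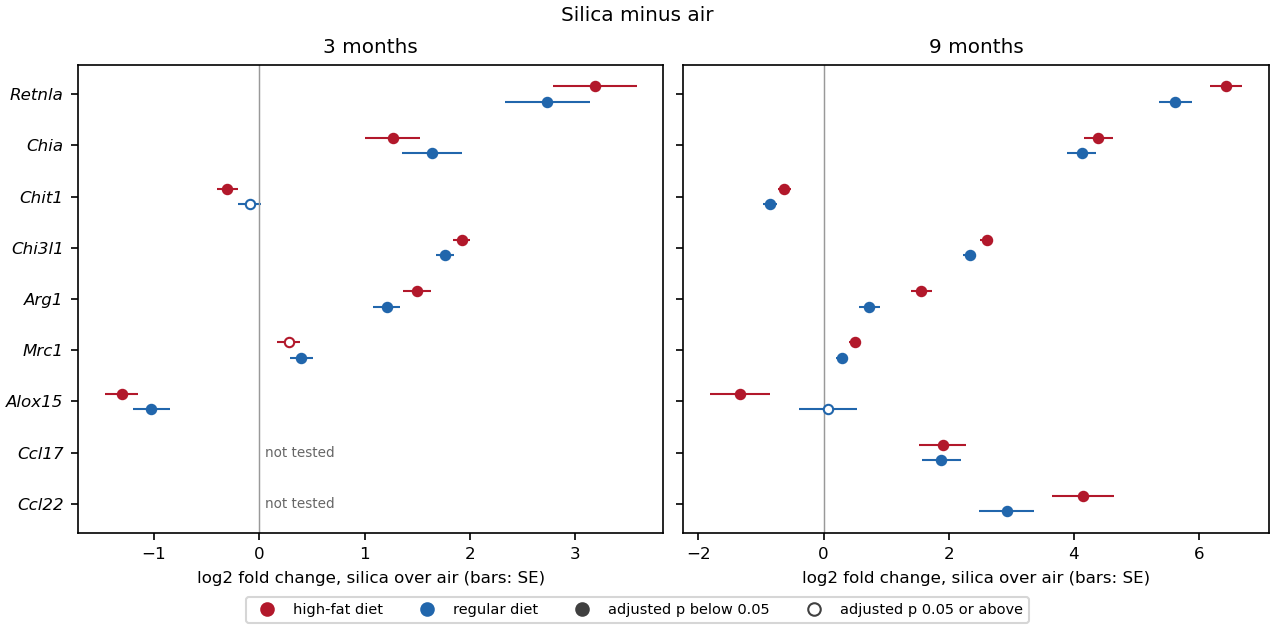
Log2 fold change of silica over air (horizontal axis, bars show the standard error) for each of the 9 genes on each diet and at each time; filled points have an adjusted p below 0.05. Retnla at 9 months lies farthest to the right, at 6.43 on the high-fat and 5.62 on the regular diet, while Chit1 and Alox15 lie at or left of 0 except for Alox15 at 0.07 on the regular diet at 9 months.

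The stretches of 200 bases before the start of Retnla, Chia, Chi3l1 and Ccl17 are shown because these members rose with silica and differ in the short motifs found there. They are RefSeq sequences of the GRCr8 assembly, which listed 7 of the 9 symbols in 8 entries, Chit1 having 2; the counts themselves were made on Rnor_6.0, and no coordinate was moved between the builds. Capitals mark matches on either strand, and positions count back from the start of the gene to the first letter of the match.
Retnla, chr11:65426187-65426386, minus strand: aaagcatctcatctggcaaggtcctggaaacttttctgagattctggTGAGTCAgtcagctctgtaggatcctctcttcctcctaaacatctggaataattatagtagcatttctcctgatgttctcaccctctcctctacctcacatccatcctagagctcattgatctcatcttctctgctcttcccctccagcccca
Chia, chr2:196302487-196302686, plus strand: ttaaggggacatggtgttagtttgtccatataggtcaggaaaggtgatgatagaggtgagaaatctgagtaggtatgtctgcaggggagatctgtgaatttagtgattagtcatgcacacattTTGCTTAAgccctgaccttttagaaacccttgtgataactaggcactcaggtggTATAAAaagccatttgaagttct
Chi3l1, chr13:48193639-48193838, plus strand: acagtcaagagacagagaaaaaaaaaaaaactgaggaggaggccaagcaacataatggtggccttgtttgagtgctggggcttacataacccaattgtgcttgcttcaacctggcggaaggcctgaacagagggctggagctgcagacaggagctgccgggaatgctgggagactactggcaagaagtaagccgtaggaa
Ccl17, chr19:10209896-10210095, minus strand: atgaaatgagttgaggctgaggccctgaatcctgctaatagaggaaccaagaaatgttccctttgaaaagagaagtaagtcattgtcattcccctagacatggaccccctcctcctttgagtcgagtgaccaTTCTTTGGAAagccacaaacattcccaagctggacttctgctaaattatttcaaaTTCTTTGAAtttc

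Short motifs, 5 in all, were searched in the 250 bases before each start, on both strands. They were TTCNNNNGAA, the spacing that Stat6 is known to prefer; TTCNNNGAA, the spacing of other Stat factors; TGANTCA, the AP-1 motif; TTGCNNAA, a C/EBP core; and TATAAA, the TATA box. Retnla held TGANTCA at position -153, a motif found in 6.34% of the 33469 rat promoters searched in the same way. Chia held TTGCNNAA at -77 and TATAAA at -23, which were found in 9.22% and 12.9% of promoters. Ccl17 was the member with both Stat spacings, TTCNNNNGAA at -68 and TTCNNNGAA at -13, present in 6.25% and 7.67% of promoters, and these matches do not overlap. The first Chit1 entry held TGANTCA at -69. The letters of the 5 motifs were not in the windows of Chi3l1, Mrc1, Ccl22 or the other Chit1 entry. A match describes letters and is not a binding site.

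Retnla encodes a secreted resistin-like protein that is strongly induced by interleukin 4 and interleukin 13 in mouse lung. Silica rats on the regular diet at 3 months had 68.4, 41.4, 45.2, 136 and 44.6 CPM and their air rats 7.53, 9.03, 7.73 and 15.2 CPM. Every silica rat was above every air rat, and rat 4 of the silica group was well above the other silica rats. The fold change was 6.67 (log2 2.74 ± 0.40, adjusted p = 5.67e-05). High-fat silica rats at 3 months had 81.4, 60.6, 26.1, 75.4 and 56.3 CPM and high-fat air rats 7.35, 3.57, 5.10, 9.59 and 6.36 CPM. The groups again did not overlap, with silica rat 3 the lowest of its group, and the fold change was 9.13 (log2 3.19 ± 0.40, adjusted p = 5.38e-06).

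At 9 months Retnla was far higher with silica on both diets. The regular-diet silica rats had 291, 412, 356, 284 and 236 CPM, against a lowest of 3.75, a median of 5.81 and a highest of 11.9 CPM in the air rats. The high-fat silica rats ran from 510 through a median of 580 to 663 CPM, against 3.26, 5.41 and 18.5 CPM as lowest, median and highest in the high-fat air rats. Neither pair of groups overlapped, and the lowest high-fat silica rat was also above the highest regular-diet silica rat. The fold changes were 49.2 on the regular diet (log2 5.62 ± 0.26, adjusted p = 2.76e-14) and 86.2 on the high-fat diet (log2 6.43 ± 0.26, adjusted p = 6.96e-16). The air groups of the 4 diet and time combinations averaged between 6.40 and 9.86 CPM.

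**Figure D2:**
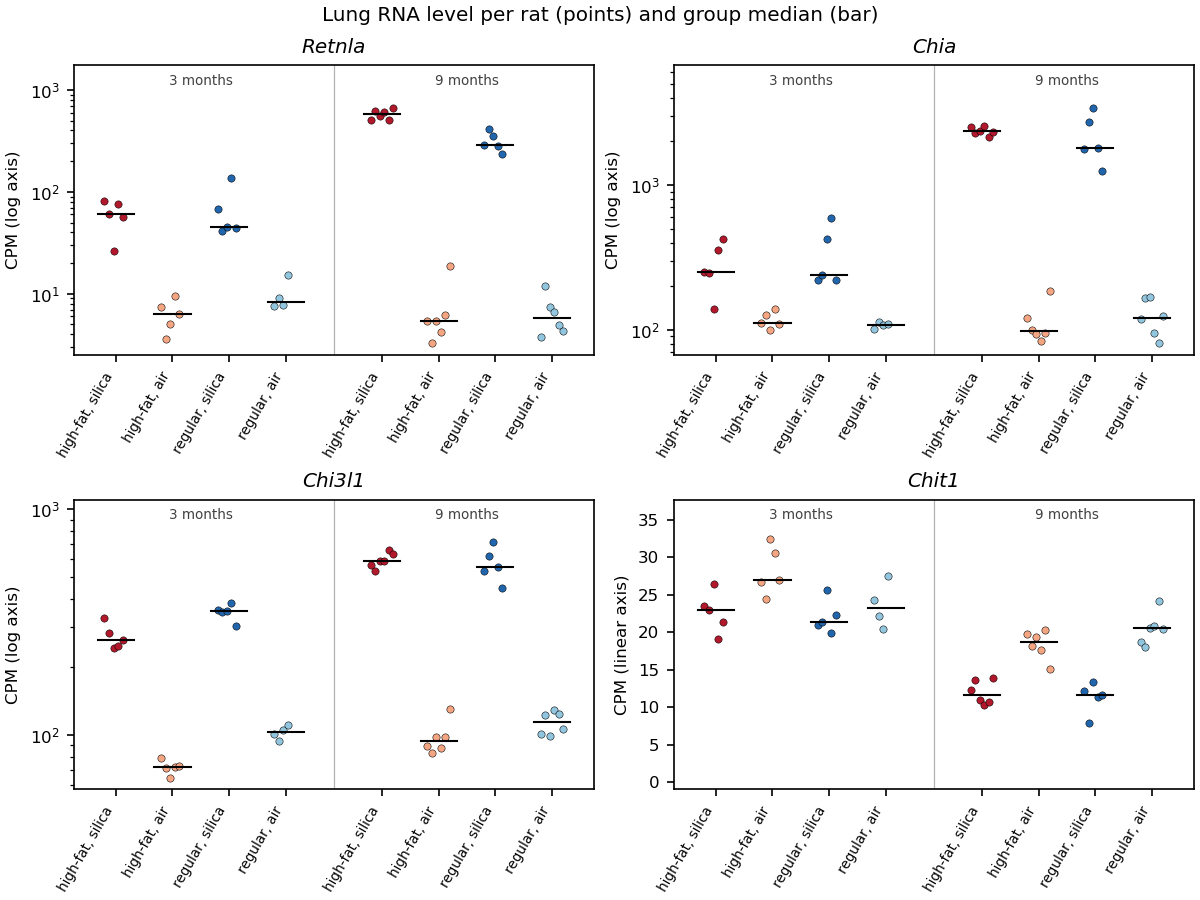
CPM per rat (vertical axis, logarithmic for Retnla, Chia and Chi3l1 and linear for Chit1) in the 8 groups, with points for rats and a bar for the group median. Retnla and Chia stand about level in the 4 air groups and highest in the silica groups at 9 months, while Chit1 is lowest in those same silica groups.

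Chia encodes acidic mammalian chitinase, an enzyme that digests chitin in the stomach and airways. Its count is uncertain in one respect, because the rat annotation lists a Chia pseudogene whose reads the counting may have split or added. At 3 months it stood at 220, 238, 421, 594 and 222 CPM in regular-diet silica rats and at 102, 113.9, 108 and 108.9 CPM in air rats, with no overlap. The fold change was 3.12 (log2 1.64 ± 0.29, adjusted p = 0.000358). High-fat silica rats at 3 months had 249, 248, 139, 356 and 426 CPM and high-fat air rats 112.3, 126, 99.3, 140 and 109.3 CPM. Silica rat 3 lay just under the highest air rat, and the fold change was 2.41 (log2 1.27 ± 0.26, adjusted p = 0.00151).

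By 9 months Chia in silica lungs was an order of magnitude above its level in air lungs. The regular-diet silica rats had 1773, 2740, 3395, 1795 and 1254 CPM, against 80.7, 121.4 and 168 CPM as lowest, median and highest in air rats. Silica rats on the high-fat diet had a lowest of 2130, a median of 2340 and a highest of 2539 CPM, against 83.6, 98.0 and 187 CPM in air rats. No rats overlapped on either diet. The high-fat silica rats were close together (2361 ± 152 CPM, SD, n = 6), while the regular-diet silica rats were spread widely (2191 ± 860 CPM, SD, n = 5). The fold changes were 20.9 on the high-fat diet (log2 4.39 ± 0.23, adjusted p = 4.97e-14) and 17.5 on the regular diet (log2 4.13 ± 0.23, adjusted p = 6.63e-13).

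Chit1 encodes chitotriosidase, the other active mammalian chitinase, which is made chiefly by macrophages in humans. It did not rise in any of the 4 comparisons. At 3 months it had 20.9, 21.3, 25.6, 19.9 and 22.2 CPM in regular-diet silica rats and 24.3, 22.1, 20.4 and 27.4 CPM in air rats, which overlapped and did not pass the test (log2 -0.09 ± 0.11, adjusted p = 0.606). The high-fat diet gave 23.5, 23.0, 26.4, 19.1 and 21.4 CPM in silica rats of 3 months and 26.7, 24.4, 32.4, 30.6 and 27.0 CPM in air rats. These groups overlapped too, and the 1.23-fold lower level passed by a small margin (log2 -0.30 ± 0.10, adjusted p = 0.0385). That call was lost without air rats 3 (adjusted p = 0.13) or 4 (0.12) and without silica rats 1 (0.058), 2 (0.072), 4 (0.10) or 5 (0.087).

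At 9 months Chit1 was lower with silica on both diets and the groups did not overlap. Regular-diet silica rats had 12.1, 7.93, 13.3, 11.3 and 11.6 CPM, against 18.0, 20.5 and 24.2 CPM as lowest, median and highest in air rats. Those on the high-fat diet had 10.3, 11.6 and 13.9 CPM, against 15.1, 18.7 and 20.2 CPM in air rats. It fell by 0.85 ± 0.11 on the log2 scale on the regular diet, 1.81-fold (adjusted p = 6.77e-07). With the high-fat diet it fell by 0.63 ± 0.11, 1.54-fold (adjusted p = 2.15e-05).

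Chi3l1 encodes the chitinase-like lectin also called YKL-40, which binds chitin without cleaving it and is secreted by macrophages, neutrophils and epithelial cells. Its standard errors were the smallest of the tested members at 3 months, and by p it held rank 2 among all tested genes on each diet. Chi3l1 levels at 3 months were 357, 353, 354, 387 and 304 CPM in regular-diet silica rats and 101, 94.6, 105 and 110.95 CPM in air rats. They were 329, 284, 244, 249 and 263 CPM in high-fat silica rats and 79.5, 71.5, 64.9, 72.0 and 73.0 CPM in air rats. No silica rat overlapped an air rat. The fold changes were 3.41 on the regular diet (log2 1.77 ± 0.08, adjusted p = 5.06e-12) and 3.79 on the high-fat diet (log2 1.92 ± 0.08, adjusted p = 2.16e-13).

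At 9 months Chi3l1 was higher again in silica lungs. Regular-diet silica rats had 532, 623, 714, 557 and 448 CPM, against 99.5, 114.5 and 130 CPM as lowest, median and highest in air rats. High-fat silica rats had 535, 590 and 659 CPM, against 82.9, 94.0 and 131 CPM in air rats. The ranges were far apart on both diets, and the silica groups of the 2 diets overlapped each other. The fold changes were 6.10 on the high-fat diet (log2 2.61 ± 0.11, adjusted p = 7.26e-16) and 5.04 on the regular diet (log2 2.33 ± 0.11, adjusted p = 2.76e-14).

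Arg1 encodes arginase 1, which splits arginine into ornithine and urea and so competes with nitric oxide synthase for its substrate. At 3 months Arg1 had 40.2, 35.5, 37.2, 46.3 and 36.9 CPM in regular-diet silica rats and 15.1, 16.7, 13.6 and 22.2 CPM in air rats. For the high-fat diet, silica rats had 38.3, 27.1, 27.0, 29.5 and 27.1 CPM and high-fat air rats 10.3, 8.77, 9.66, 11.3 and 12.4 CPM. All silica rats were above all air rats of their diet. The fold changes were 2.31 on the regular diet (log2 1.21 ± 0.13, adjusted p = 1.05e-06) and 2.83 on the high-fat diet (log2 1.50 ± 0.14, adjusted p = 4.62e-08).

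At 9 months Arg1 rose on both diets, but the air rats of the regular diet were spread widely. Regular-diet silica rats had 44.3, 55.0, 55.3, 37.6 and 33.4 CPM, against 19.6, 24.3 and 43.3 CPM as lowest, median and highest in air rats, and the groups overlapped. High-fat silica rats had 38.5, 40.3 and 48.0 CPM, against 11.1, 14.3 and 16.2 CPM in air rats, with no overlap. The fold changes were 2.95 on the high-fat diet (log2 1.56 ± 0.17, adjusted p = 2.42e-08) and 1.66 on the regular diet (log2 0.73 ± 0.16, adjusted p = 0.000651).

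**Figure D3:**
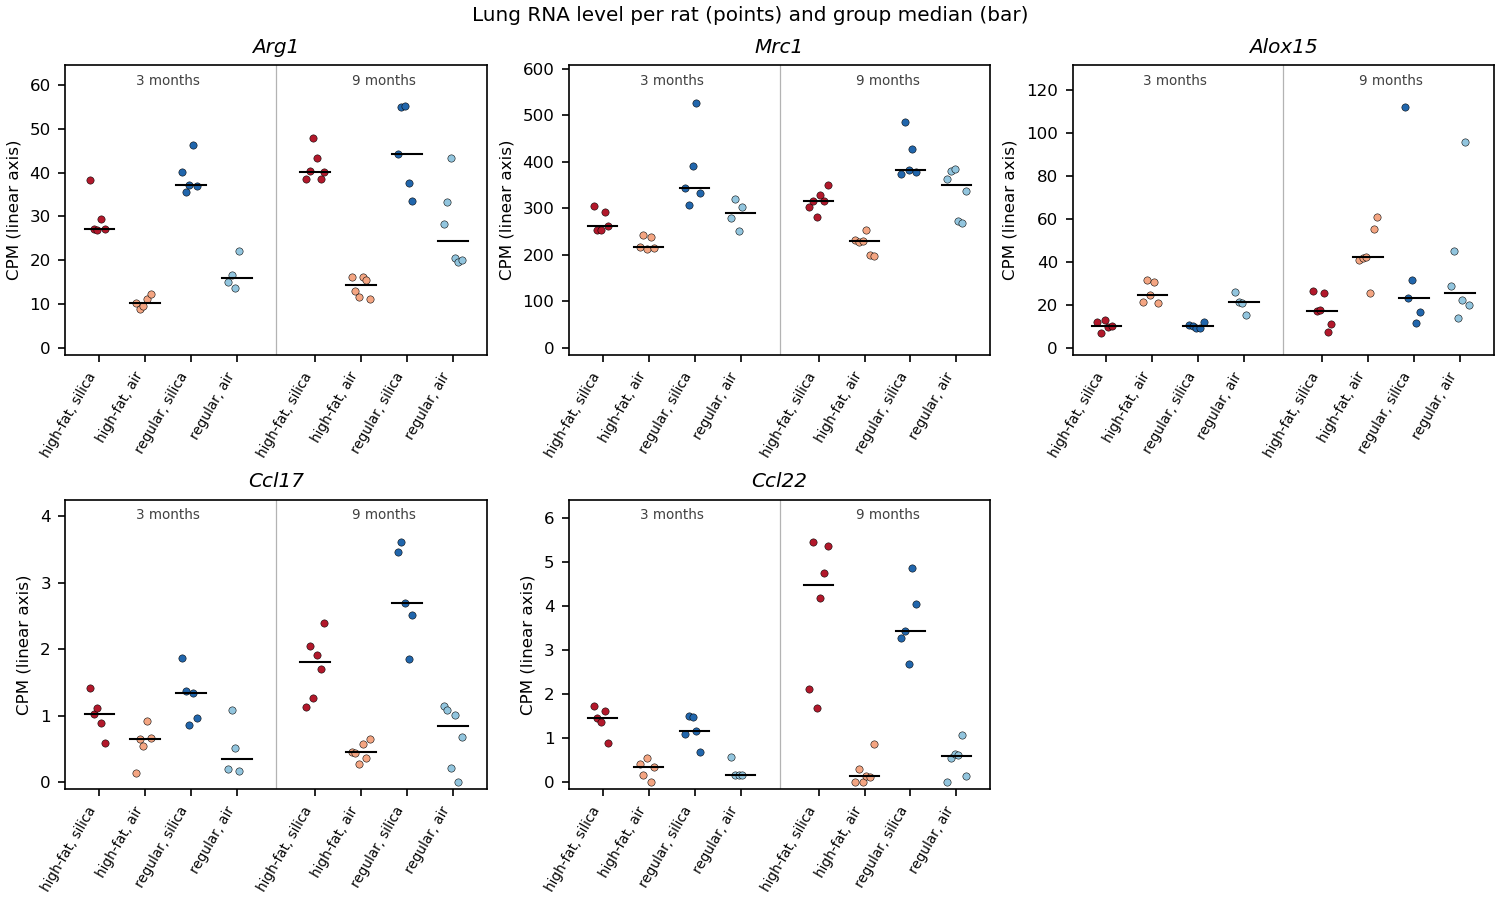
CPM per rat (vertical axis, linear) for Arg1, Mrc1, Alox15, Ccl17 and Ccl22 in the 8 groups, with points for rats and a bar for the group median. Arg1 is higher with silica in each pair, Mrc1 is lower on the high-fat diet at both times, and 1 regular-diet silica rat stands at 112.2 CPM for Alox15 at 9 months.

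Mrc1 encodes the macrophage mannose receptor CD206, an endocytic lectin that alveolar and alternatively activated macrophages carry. Its changes with silica were small. At 3 months it had 345, 308, 391, 527 and 334 CPM in regular-diet silica rats and 279, 321, 251 and 303 CPM in air rats, which overlapped. The 1.32-fold rise passed (log2 0.40 ± 0.11, adjusted p = 0.0177) but was lost without air rat 3 (adjusted p = 0.076). High-fat silica rats had 306, 253, 254, 292 and 262 CPM and high-fat air rats 216, 244, 212, 238 and 215 CPM. Here no rats overlapped, yet the difference did not pass (log2 0.28 ± 0.11, adjusted p = 0.0795); a fit of these 2 groups alone gave 0.0074.

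At 9 months Mrc1 rose on both diets. Regular-diet silica rats had 375, 486, 383, 428 and 379 CPM, against 268, 351 and 385 CPM as lowest, median and highest in air rats, and the groups overlapped. The rise of 1.23-fold (log2 0.29 ± 0.09, adjusted p = 0.0109) was lost without silica rat 2 (adjusted p = 0.054). High-fat silica rats had 281, 316 and 351 CPM, against 198, 229 and 254 CPM in air rats, with no overlap and a fold change of 1.41 (log2 0.50 ± 0.09, adjusted p = 3.7e-05).

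Alox15 encodes the 12/15-lipoxygenase, which oxidises polyunsaturated fatty acids and, in human and mouse cells, is induced by interleukin 4 or 13 in macrophages or airway epithelium. In these lungs it was lower with silica at 3 months. There were 10.4, 10.3, 9.16, 9.36 and 12.2 CPM in regular-diet silica rats and 26.1, 21.5, 21.1 and 15.5 CPM in air rats. The high-fat diet gave 11.8, 6.89, 12.9, 9.83 and 10.2 CPM in silica rats and 21.2, 31.7, 24.6, 30.7 and 20.8 CPM in air rats. All silica rats lay below all air rats of their diet. It fell by 1.02 ± 0.17 on the log2 scale on the regular diet, 2.03-fold (adjusted p = 0.000271), and on the other diet it fell by 1.31 ± 0.16, 2.48-fold (adjusted p = 3.9e-06).

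At 9 months the rats of a group differed widely in Alox15. The regular-diet silica rats had 112.2, 23.1, 31.5, 11.6 and 16.6 CPM, against 14.1, 25.6 and 95.8 CPM as lowest, median and highest in air rats. These ranges covered each other, and the difference did not pass (log2 0.07 ± 0.47, adjusted p = 0.915); without silica rat 1 it was -0.83 (adjusted p = 0.10). The high-fat silica rats had 7.47, 17.3 and 26.3 CPM, against 25.4, 42.2 and 60.9 CPM in air rats. They overlapped only at the edge, and Alox15 fell by 1.33 ± 0.48 on the log2 scale, 2.52-fold (adjusted p = 0.0219). That call was lost without silica rat 5 (adjusted p = 0.057) or 6 (0.053) and with the ribosomal RNA share of each library in the fit (0.14).

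Ccl17 and Ccl22 encode the ligands of the chemokine receptor Ccr4, which draw type 2 helper and regulatory T cells, and their genes lie on the same chromosome, 19. Both were measured by few counts. At 3 months Ccl17 had 44 counts in all 5 regular-diet silica rats (0.866 to 1.87 CPM) and 12 in the 4 air rats (0.170 to 1.09 CPM), and 34 counts in the high-fat silica rats (0.590 to 1.42 CPM) against 18 in the air rats (0.136 to 0.913 CPM). Ccl22 had 42 counts in the regular-diet silica rats (0.690 to 1.51 CPM) against 6 in the air rats (0.156 to 0.579 CPM), and 47 in the high-fat silica rats (0.885 to 1.73 CPM) against 9 in the air rats (0 to 0.547 CPM). Neither gene passed the filter on low counts there. Without the filter Ccl22 was called higher on the regular diet (log2 2.15, adjusted p = 0.0049) and on the high-fat diet (log2 2.22, adjusted p = 0.00066), and its silica and air rats did not overlap; Ccl17 was not called and its groups overlapped.

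At 9 months both chemokines rose on both diets, and no silica rat overlapped an air rat. Ccl17 had 3.46, 3.62, 2.70, 1.85 and 2.51 CPM in regular-diet silica rats, against 0, 0.839 and 1.14 CPM as lowest, median and highest in air rats. In high-fat silica rats Ccl17 had 1.13, 1.80 and 2.39 CPM, against 0.266, 0.452 and 0.655 CPM in air rats. The 2 fold changes were close to each other, 3.68 on the regular diet (log2 1.88 ± 0.31, adjusted p = 2.07e-05) and 3.74 on the high-fat diet (log2 1.90 ± 0.37, adjusted p = 0.000123). Ccl22 had 3.29, 3.45, 2.70, 4.88 and 4.06 CPM in regular-diet silica rats, against 0, 0.585 and 1.08 CPM in air rats. In high-fat silica rats it had 1.69, 4.47 and 5.47 CPM, against 0, 0.133 and 0.873 CPM in air rats. Its fold changes were 7.60 on the regular diet (log2 2.93 ± 0.44, adjusted p = 3.63e-06) and 17.7 on the high-fat diet (log2 4.15 ± 0.50, adjusted p = 6.25e-08). The high-fat air group held 8 counts of Ccl22 in all, 4 of them in rat 6, and without that rat the log2 difference was 4.88.

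Silica effects were then compared between times, by a difference of differences in a fit of all 8 groups. In regular-diet rats 4 of the 9 members had a different silica effect at 9 than at 3 months, 3 higher and 1 lower, where 6.78% of all tested genes did (3.71% higher and 3.07% lower). Retnla had a log2 difference of 2.87 ± 0.52 (adjusted p = 0.000616), Chia 2.48 ± 0.37 (adjusted p = 4.88e-05), Chi3l1 0.56 ± 0.15 (adjusted p = 0.0145) and Chit1 -0.76 ± 0.16 (adjusted p = 0.00208). The Chi3l1 call was lost without air rat 4 of 3 months (0.50, adjusted p = 0.054). In high-fat rats 3 of the 9 passed, all higher at 9 months, where 10.7% of all genes passed (6.55% higher and 4.12% lower). Retnla had 3.25 ± 0.53 (adjusted p = 6.99e-05), Chia 3.12 ± 0.35 (adjusted p = 1.79e-07) and Chi3l1 0.69 ± 0.14 (adjusted p = 0.00103), while Chit1 had -0.32 ± 0.15 (adjusted p = 0.156). Arg1 and Mrc1 had differences of -0.48 ± 0.23 and -0.11 ± 0.15 on the regular diet and 0.06 ± 0.24 and 0.22 ± 0.14 on the high-fat diet, none of which passed. Alox15, Ccl17 and Ccl22 had standard errors of 0.59 to 1.01 and did not pass either.

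Each comparison of the high-fat with the regular diet called 2 members, and Mrc1, Arg1 and Chi3l1 were the ones called lower in some of them. Most of these calls were lost in another fit or without a single rat, as given below. At the later time diet could not be told apart from the ribosomal RNA share of the libraries, so those calls cannot be assigned to diet. In air rats at 3 months 2 of 7 members passed, both lower on the high-fat diet, where 2.95% of all genes passed (1.65% higher and 1.3% lower) and 9.96% did not overlap. Chi3l1 averaged 72.2 ± 5.19 CPM in high-fat and 103 ± 6.83 CPM in regular-diet air rats (SD, n = 5 and 4), without overlap, a log2 difference of -0.51 ± 0.09 (adjusted p = 0.00609). Arg1 averaged 10.5 ± 1.40 CPM in high-fat and 16.9 ± 3.75 CPM in regular-diet air rats, without overlap (log2 -0.69 ± 0.16, adjusted p = 0.0238). The Arg1 call was lost without regular-diet air rats 2 (adjusted p = 0.059) or 4 (0.12) and without high-fat air rat 3 (0.055). Mrc1 averaged 225 ± 14.7 CPM in high-fat and 288 ± 30.3 CPM in regular-diet air rats; its rats did not overlap, but the difference did not pass (log2 -0.36 ± 0.11, adjusted p = 0.0809), whereas DESeq2 (0.044) and a fit of these 2 groups alone (0.014) called it.

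In silica rats at 3 months 2 of 7 members passed, both lower on the high-fat diet, where 0.702% of all genes passed (0.295% higher and 0.407% lower) and 2.19% did not overlap. Mrc1 averaged 273 ± 24.3 CPM in high-fat and 381 ± 86.7 CPM in regular-diet silica rats, and every high-fat rat was below every regular-diet rat (log2 -0.48 ± 0.11, adjusted p = 0.0327). Chi3l1 averaged 274 ± 34.5 CPM in high-fat and 351 ± 29.8 CPM in regular-diet silica rats, with overlap (log2 -0.36 ± 0.07, adjusted p = 0.0202). Mrc1 lost its call without regular-diet silica rat 4 (adjusted p = 0.058) or high-fat silica rats 2 (0.090), 3 (0.10) or 5 (0.077), and in a fit of the 2 groups alone (0.11). Chi3l1 lost its call without regular-diet silica rat 4 (0.064) or high-fat silica rats 3 (0.078), 4 (0.060) or 5 (0.056), and in the fit of the 2 groups (0.085). Arg1 had -0.40 ± 0.11 (adjusted p = 0.103), and it was called without high-fat silica rat 1 (-0.50, adjusted p = 0.022).

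At 9 months Mrc1 was lower on the high-fat diet with either exposure. In air rats 2 of 9 members passed, both lower, where 15.2% of all genes passed (8.16% higher and 7.06% lower) and 6.05% did not overlap. Arg1 averaged 14.0 ± 2.28 CPM in high-fat and 27.5 ± 9.48 CPM in regular-diet air rats (SD, n = 6 each), a 1.93-fold lower level without overlap (log2 -0.95 ± 0.17, adjusted p = 0.000528). Mrc1 averaged 224 ± 21.2 CPM in high-fat and 335 ± 52.7 CPM in regular-diet air rats, also without overlap (log2 -0.58 ± 0.09, adjusted p = 8.33e-05). Chi3l1 had -0.22 ± 0.10 (adjusted p = 0.155); without high-fat air rat 6 it was -0.32 and called (adjusted p = 0.028).

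In silica rats at 9 months 1 member was higher and 1 lower on the high-fat diet, where 3.52% of all genes passed (1.82% higher and 1.7% lower) and 3.18% did not overlap. Retnla averaged 577 ± 63.1 CPM in high-fat and 316 ± 68.5 CPM in regular-diet silica rats (SD, n = 6 and 5), 1.83-fold higher without overlap (log2 0.87 ± 0.20, adjusted p = 0.0161), and DESeq2 did not call it (0.11). Mrc1 averaged 316 ± 23.8 CPM in high-fat and 410 ± 47.5 CPM in regular-diet silica rats, without overlap (log2 -0.37 ± 0.09, adjusted p = 0.0228). That call was lost without regular-diet silica rats 2 (adjusted p = 0.080) or 4 (0.054). Chia, Chi3l1, Chit1, Arg1 and Ccl22 had log2 differences between -0.12 and 0.11 there.

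**Figure D4:**
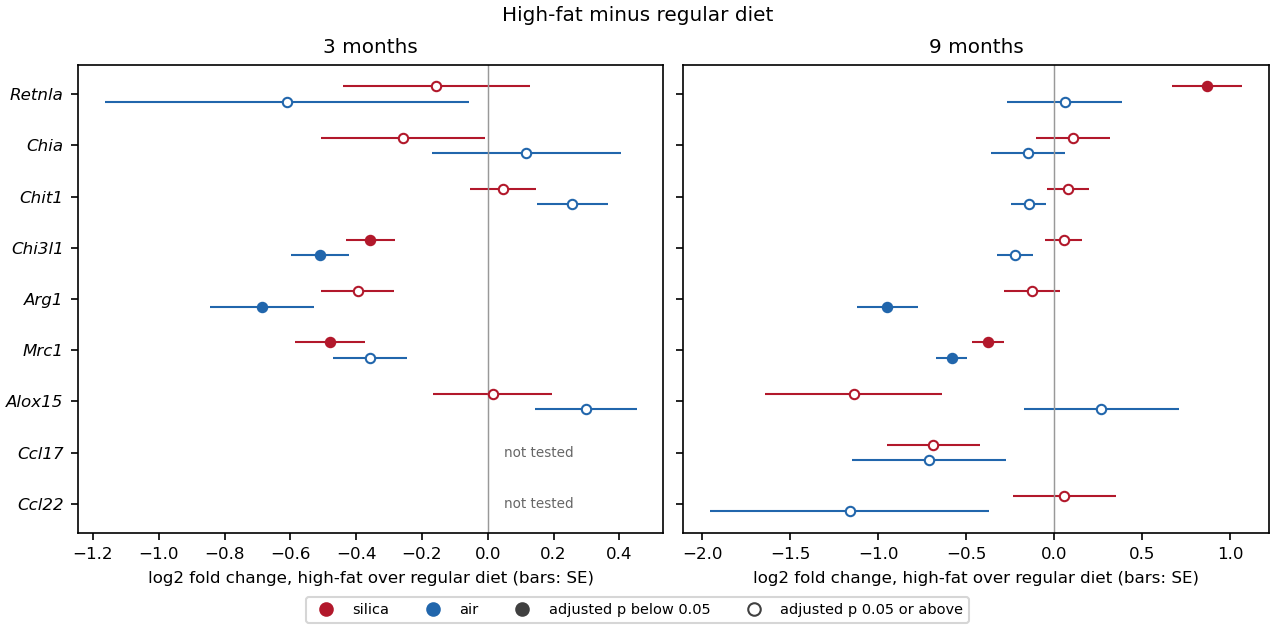
Log2 fold change of the high-fat over the regular diet (horizontal axis, bars show the standard error) for each of the 9 genes in silica and in air rats at each time; filled points have an adjusted p below 0.05. Mrc1 lies left of 0 in all 4 comparisons and Retnla in silica rats at 9 months lies at 0.87.

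Diet at 9 months moved together with the share of ribosomal RNA, the genes listed as Rnr1 and Rnr2, in the libraries. That share was 7.29 to 7.85% of counts in high-fat silica rats and 4.62 to 7.19% in high-fat air rats, and 2.60 to 5.35% in regular-diet silica rats and 0.375 to 2.29% in regular-diet air rats. The ranges of the 2 diets did not overlap with either exposure, so diet and this share cannot be told apart at 9 months. Silica and air rats of a diet did not overlap either, so the share moved with silica as well. With the share as a covariate the 4 diet calls of 9 months were lost. In air rats Arg1 had a log2 difference of -0.65 ± 0.44 (adjusted p = 0.84) and Mrc1 one of -0.41 ± 0.23 (0.79). In silica rats Retnla had 0.93 ± 0.55 (0.99) and Mrc1 had -0.24 ± 0.19 (0.9998). Without the covariate the standard errors were 0.17 for Arg1 and 0.09 for Mrc1 in air rats. They were 0.20 for Retnla and 0.09 for Mrc1 in silica rats, so the covariate widened each of them. The Retnla difference itself did not shrink from its value of 0.87 without the covariate. At 3 months the share was 0.605 to 1.66% in all rats.

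The silica effect was not shown to differ between the diets for any member. At 3 months 0 of the 7 tested members passed the test of that difference, where 0% of all genes passed; at an unadjusted p below 0.05 there were 990 of 15234 genes and 0 members, and DESeq2 called 1 gene, not a member. At 9 months 0 of 9 members passed, where 1.09% of all genes did. Arg1 came nearest, with a silica effect 0.82 ± 0.24 larger on the log2 scale on the high-fat diet (adjusted p = 0.0824). Retnla had 0.81 ± 0.38 (adjusted p = 0.334) and Alox15 had -1.41 ± 0.67 (adjusted p = 0.337), and these 3 members had an unadjusted p below 0.05, as 2175 of all genes did. DESeq2 called Arg1 (adjusted p = 0.029), and edgeR called it without regular-diet air rats 4 (0.90, adjusted p = 0.043) or 5 (0.89, adjusted p = 0.049). Retnla was called without high-fat air rat 6 (1.24, adjusted p = 0.041). That rat was the highest of its group for 6 of the 9 members, and its library, with 4554669 counts, was the smallest of the group.

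Genes of the signalling chain above these members moved in both directions. Of 21 listed genes of the interleukin 4, 13 and 33 pathways, 15 were tested. The regular diet had 4 higher and 1 lower at 3 months, and 7 rose and 2 fell at 9 months; on the high-fat diet 3 rose and 2 fell at 3 months, and 7 rose and 4 fell at 9 months. The shares of all genes called, given above, were 16.8 and 17.4% at 3 months and 45.1 and 51.6% at 9 months on the regular and the high-fat diet, and apply to each list that follows. The cytokine genes Il4 and Il13 had 0 to 3 and 0 to 2 counts in a whole group, with silica and with air alike, so no change was detectable at this depth. Il33, the epithelial alarmin that acts upstream of both, fell with silica on both diets at both times. At 3 months it averaged 321 CPM in regular-diet silica and 404 CPM in air rats (log2 -0.33 ± 0.07, adjusted p = 0.0025), and 292 CPM in high-fat silica and 363 CPM in air rats (log2 -0.32 ± 0.07, adjusted p = 0.0019). At 9 months it averaged 244 CPM in regular-diet silica and 407 CPM in air rats (log2 -0.74 ± 0.08, adjusted p = 6.3e-08), and 241 CPM in high-fat silica and 370 CPM in air rats (log2 -0.62 ± 0.08, adjusted p = 2.9e-07). Il4r, the receptor chain that both cytokines share, fell by 0.62 ± 0.11 on the high-fat diet at 3 months, and at 9 months it fell by 0.33 ± 0.12 on the regular and fell by 0.36 ± 0.11 on the high-fat diet.

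Among the genes of this pathway that rose were parts of receptors. Crlf2, the receptor chain for thymic stromal lymphopoietin, rose by 0.69 ± 0.13 on the regular and 0.62 ± 0.13 on the high-fat diet at 3 months, and by 0.64 ± 0.17 and 0.88 ± 0.17 at 9 months. Il1rl1, the receptor of interleukin 33, rose by 0.28 ± 0.09 on the regular and 0.36 ± 0.09 on the high-fat diet at 3 months and by 0.28 ± 0.11 on the regular diet at 9 months. Jak3, the kinase bound to the common gamma chain, rose in all 4 comparisons, by 0.43 ± 0.12 and 0.39 ± 0.11 at 3 months and by 0.81 ± 0.10 and 0.97 ± 0.09 at 9 months for the regular and high-fat diets. At 9 months Il2rg, the common gamma chain, rose by 0.56 ± 0.10 on the regular and 0.53 ± 0.10 on the high-fat diet. Cish, a feedback inhibitor of cytokine receptors, rose by 0.56 ± 0.14 on the regular diet at 3 months and by 0.74 ± 0.12 on the high-fat diet at 9 months. Il13ra1, the chain that binds interleukin 13, rose by 0.42 ± 0.09 on the regular and 0.37 ± 0.09 on the high-fat diet at 9 months.

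Among other genes used as marks of alternative activation more rose than fell in each silica comparison. Of 29 listed symbols 24 were in the tables and 19 or 20 were tested. Regular-diet silica rats had 9 higher and 2 lower at 3 months and 13 rose and 3 fell at 9 months; on the high-fat diet 7 rose and 2 fell at 3 months and 15 rose and 4 fell at 9 months. The median log2 fold change of the tested genes was 0.31 and 0.29 at 3 months and 0.47 and 0.73 at 9 months, on the regular and the high-fat diet. Fcgr2b, the inhibitory Fc receptor, rose by 1.33 ± 0.12 on the regular and 1.51 ± 0.12 on the high-fat diet at 3 months and by 1.95 ± 0.13 and 2.69 ± 0.14 at 9 months. Il1rn, the antagonist of the interleukin 1 receptor, rose by 1.14 ± 0.20 and 1.23 ± 0.20 at 3 months and by 1.79 ± 0.10 and 1.80 ± 0.10 at 9 months. Msr1, a scavenger receptor, rose by 1.05 ± 0.10 and 1.20 ± 0.10 at 3 months and by 0.94 ± 0.13 and 1.62 ± 0.12 at 9 months. Trem2, a lipid receptor of macrophages, rose by 0.81 ± 0.15 and 1.20 ± 0.16 at 3 months and by 0.58 ± 0.13 and 1.65 ± 0.14 at 9 months. Igf1, an insulin-like growth factor, rose by 0.66 ± 0.09 and 0.47 ± 0.08 at 3 months and by 0.66 ± 0.07 and 0.83 ± 0.07 at 9 months. Ccl1, a chemokine that binds Ccr8, was called higher on both diets at 9 months.

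Not every such mark rose. Cd163, the haemoglobin scavenger receptor, was chosen after its values were seen because it went down in all 4 comparisons, with log2 differences of -0.65 and -0.94 at 3 months and -1.18 and -1.32 at 9 months on the regular and the high-fat diet. Chi3l3, the rat symbol for the chitinase-like gene known as Ym1 in mouse, had 1 count in the regular-diet silica rats of 9 months and 0 counts in each of the other groups. Of 9 listed relatives of the chitinase and resistin families 2 were tested, Ctbs and Retnlg, and 1 call was made in the 4 comparisons: Retnlg, a resistin-like gene of neutrophils in mouse, fell by 0.60 ± 0.16 on the high-fat diet at 9 months (adjusted p = 0.0030).

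Genes of classical activation, the state induced by interferon gamma and bacterial products, did not fall. Of 23 listed genes 15 were tested at 3 months and 17 at 9 months. With silica 3 rose on the regular and 2 on the high-fat diet at 3 months, and 10 and 12 rose at 9 months, with 0 lower in any comparison. Cd86, a costimulatory ligand, rose by 0.74 ± 0.14 on the high-fat diet at 3 months, and by 1.20 ± 0.12 on the regular and 1.22 ± 0.11 on the high-fat diet at 9 months. Irf5, a transcription factor, rose by 0.57 ± 0.14 and 0.67 ± 0.13 at 3 months and by 0.93 ± 0.11 and 0.83 ± 0.11 at 9 months. Of the interferon-induced chemokines, Cxcl9 rose by 0.82 ± 0.22 on the regular diet at 3 months and by 1.50 ± 0.21 and 1.01 ± 0.22 at 9 months. Cxcl10 rose by 1.72 ± 0.28 and 1.81 ± 0.34, and Cxcl11 by 3.11 ± 0.46 and 1.96 ± 0.49, at 9 months. Cd80, a costimulatory ligand like Cd86, rose by 1.1196 ± 0.20 and 1.21 ± 0.20 at 9 months. Il1b, an inflammatory cytokine, rose by 0.77 ± 0.15 on the regular diet at 3 months and by 0.83 ± 0.17 and 0.69 ± 0.16 at 9 months.

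Around Arg1, 14 of 16 listed genes of arginine and polyamine metabolism were tested. With the regular diet 5 rose and 1 fell at 3 months and 4 rose and 2 fell at 9 months; on the high-fat diet 4 rose and 2 fell at 3 months and 7 rose and 3 fell at 9 months. The arginine transporter Slc7a1 rose in all 4, by 1.05 ± 0.10 on the regular and 0.73 ± 0.09 on the high-fat diet at 3 months and by 1.17 ± 0.10 and 1.26 ± 0.10 at 9 months. Slc7a2, a related transporter, rose by 0.86 ± 0.11 and 0.84 ± 0.11 at 3 months and by 0.31 ± 0.10 and 0.82 ± 0.10 at 9 months. Ass1, which makes the precursor from which arginine is rebuilt, fell by 0.65 ± 0.12 on the regular diet and fell by 1.20 ± 0.12 on the high-fat diet at 3 months, and it fell by 0.52 ± 0.14 on the high-fat diet at 9 months. Arg2, the mitochondrial arginase, rose by 1.00 ± 0.33 on the regular diet at 3 months and by 1.14 ± 0.27 and 1.19 ± 0.25 at 9 months. Odc1, which turns ornithine into the polyamine putrescine, rose by 0.47 ± 0.10 and 0.37 ± 0.10 at 3 months and by 0.37 ± 0.09 and 0.39 ± 0.09 at 9 months. Azin2, an antizyme inhibitor, rose by 0.74 ± 0.21 and 0.61 ± 0.17 at 3 months and by 0.74 ± 0.15 on the high-fat diet at 9 months. Oat, which turns ornithine towards proline and glutamate, fell by 0.48 ± 0.08 on the regular diet and fell by 0.25 ± 0.07 on the high-fat diet at 9 months. Nos3, the endothelial nitric oxide synthase, fell by 0.55 ± 0.11 at 3 months and fell by 0.45 ± 0.12 at 9 months on the high-fat diet.

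Around Alox15, 9 of 13 listed lipoxygenase and leukotriene genes were tested. For the regular diet 1 rose and 0 fell at 3 months and 5 rose and 2 fell at 9 months; on the high-fat diet 2 rose and 0 fell at 3 months and 4 rose and 1 fell at 9 months. Alox5ap, the partner protein of 5-lipoxygenase, rose by 0.68 ± 0.14 on the regular and 0.39 ± 0.13 on the high-fat diet at 3 months and by 0.51 ± 0.10 and 0.53 ± 0.10 at 9 months, while Alox15 fell or did not pass. Lta4h, which makes leukotriene B4, rose by 0.30 ± 0.10 on the high-fat diet at 3 months and by 0.37 ± 0.08 and 0.70 ± 0.08 at 9 months. Alox12, the platelet-type lipoxygenase, rose by 0.93 ± 0.12 on the regular diet at 9 months. Pla2g4a, the phospholipase that frees arachidonic acid, rose by 0.74 ± 0.13 and 0.40 ± 0.12 at 9 months. Of the receptors for cysteinyl leukotrienes, Cysltr1 rose by 0.49 ± 0.12 and 0.46 ± 0.12 and Cysltr2 fell by 0.33 ± 0.11 on the regular diet and fell by 0.38 ± 0.10 on the high-fat diet at 9 months.

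Around Ccl17 and Ccl22, 12 of 15 listed chemokines and receptors were tested. At 3 months 5 rose and 0 fell on each diet, and at 9 months 6 rose and 2 fell on each diet. Those that fell were Ccl24, which is also among the listed marks of alternative activation, and Ackr2. Ccl24 fell by 0.93 ± 0.27 on the regular diet and fell by 0.72 ± 0.23 on the high-fat diet. Ackr2 fell by 0.74 ± 0.25 and fell by 0.79 ± 0.23. The monocyte chemokine Ccl2 rose by 3.06 ± 0.24 on the regular and 3.57 ± 0.24 on the high-fat diet at 3 months and by 3.63 ± 0.23 and 4.69 ± 0.24 at 9 months. Ccl7, which also draws monocytes, rose by 2.96 ± 0.32 and 3.24 ± 0.30 at 3 months and by 3.93 ± 0.34 and 4.86 ± 0.32 at 9 months. Ccl3, which draws monocytes and neutrophils, rose by 1.26 ± 0.17 and 1.29 ± 0.17 at 3 months and by 1.24 ± 0.12 and 2.25 ± 0.13 at 9 months. Cx3cl1, the membrane-bound chemokine fractalkine, rose by 0.82 ± 0.12 and 0.77 ± 0.12 at 3 months and by 1.06 ± 0.08 and 1.48 ± 0.07 at 9 months.

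Markers of several cell types moved with silica beside these genes. Of the 8 macrophage markers measured, 6 rose on the regular and 5 on the high-fat diet at 3 months, 6 rose on each diet at 9 months, and 0 fell. Their sum is dominated by Lyz2, so the other 7 (Cd68, Csf1r, Cd14, Mertk, C1qa, C1qb and Fcgr1a) were summed without it, a choice made after the sums were seen. At 3 months this sum was 455 to 564 CPM in regular-diet silica and 391 to 421 CPM in air rats, and 448 to 515 CPM in high-fat silica and 367 to 400 CPM in air rats. At 9 months it was 609 to 743 CPM in regular-diet silica and 438 to 513 CPM in air rats, and 571 to 679 CPM in high-fat silica and 401 to 416 CPM in air rats. Silica and air rats did not overlap in any of the 4 pairs, but the 7 markers did not move alike. At 9 months Cd68 averaged 183 CPM in regular-diet silica and 57.1 CPM in air rats. On the high-fat diet it averaged 206 and 42.7 CPM. Csf1r, the largest part of the sum in every group, averaged 251 and 262 CPM on the regular and 238 and 237 CPM on the high-fat diet. At 3 months Csf1r averaged 224 and 216 CPM on the regular and 215 and 217 CPM on the high-fat diet. Regular-diet silica rat 4 of 3 months, the highest of its group for 5 members, was also the highest for this sum. So was high-fat silica rat 1 of 3 months, the highest of its group for 6 members. High-fat air rat 6 of 9 months, also the highest of its group for 6 members, was the lowest of its group for this sum (401 CPM).

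Against that sum the members kept different proportions. Mrc1 CPM divided by the marker sum averaged 0.747 in regular-diet silica and 0.720 in air rats and 0.582 in high-fat silica and 0.586 in air rats at 3 months. At 9 months the ratio averaged 0.615 in regular-diet silica and 0.701 in air rats and 0.496 in high-fat silica and 0.548 in air rats, so its mean was lower on the high-fat diet in each pair of diets. The diets overlapped in air rats at 9 months, with 0.489 to 0.615 on the high-fat and 0.576 to 0.791 on the regular diet. Silica and air rats overlapped in the Mrc1 ratio on each diet at both times. Chi3l1 had higher ratios with silica, 0.695 in regular-diet silica and 0.257 in air rats and 0.583 in high-fat silica and 0.188 in air rats at 3 months. At 9 months its ratios were 0.865 in regular-diet silica and 0.240 in air rats and 0.936 in high-fat silica and 0.241 in air rats. The Chit1 ratio was lower with silica in each pair, at 3 months with 0.0437 in regular-diet silica and 0.0588 in air rats and 0.0484 in high-fat silica and 0.0736 in air rats. At 9 months it was 0.0172 in regular-diet silica and 0.0431 in air rats and 0.0187 in high-fat silica and 0.0449 in air rats. Arg1 had ratios of 0.0774 in regular-diet silica and 0.0419 in air rats and 0.0632 in high-fat silica and 0.0273 in air rats at 3 months. At 9 months its ratio was 0.0678 in regular-diet silica and 0.0575 in air rats, which overlapped, and 0.0651 in high-fat silica and 0.0342 in air rats, which did not. These ratios are descriptions and carry no test, and the part of the macrophage markers in the changes of the members was not tested.

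**Figure D5:**
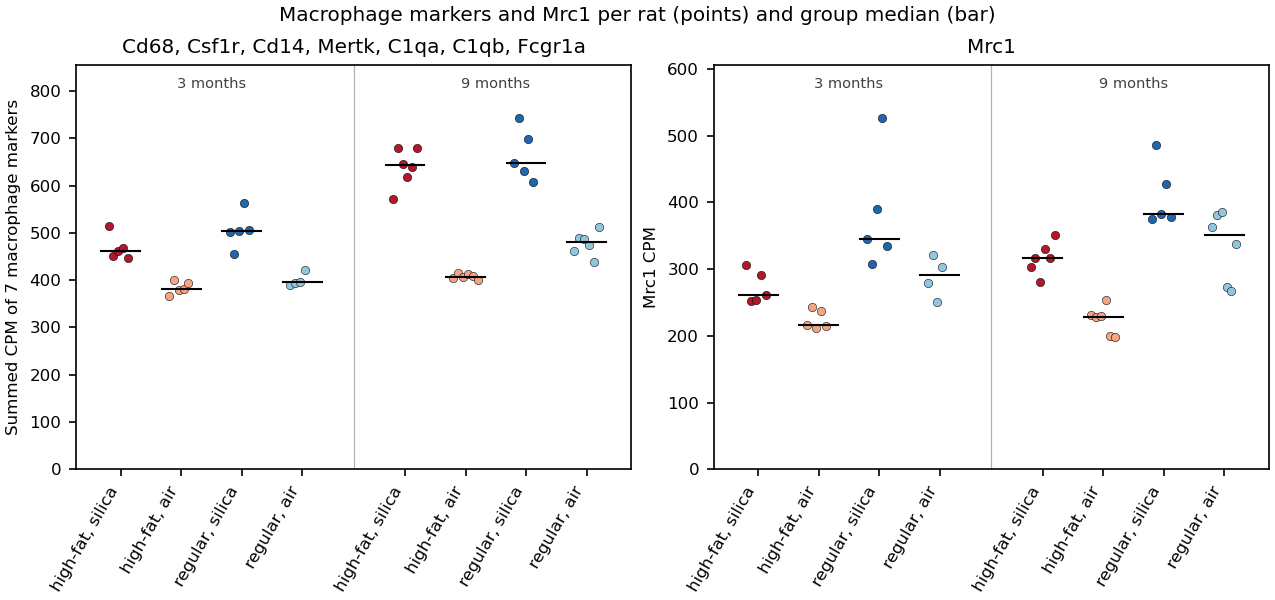
Summed CPM of 7 macrophage markers and CPM of Mrc1 per rat (vertical axes, linear) in the 8 groups, with points for rats and a bar for the group median. The marker sum separates silica from air rats in each pair, while Mrc1 separates them on the high-fat diet and overlaps on the regular diet.

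Markers of other cell types were read in the same way. The summed type 2 markers (7 of 7 in the tables) were 26926 to 32397 CPM in regular-diet silica and 16537 to 24284 CPM in air rats, and 28622 to 37007 CPM in high-fat silica and 14367 to 17969 CPM in air rats at 9 months. The summed neutrophil markers (9 of 9 in the tables) were 539 to 1410 CPM in regular-diet silica and 112.06 to 374 CPM in air rats, and 923 to 1182 CPM in high-fat silica and 164 to 287 CPM in air rats at 9 months. Both sums were also apart between silica and air rats at 3 months on each diet. Of the neutrophil markers, Mpo, Np4 and Ltf had under 10 counts in every group. The eosinophil markers Epx, Prg3, Ear1 and Gata1 had under 10 counts in every group. The sum of all 8 was 44.6 to 52.2 CPM in regular-diet silica and 27.1 to 33.0 CPM in air rats and 39.3 to 48.7 CPM in high-fat silica and 23.5 to 46.6 CPM in air rats at 3 months. At 9 months it was 48.1 to 72.1 CPM in regular-diet silica and 35.0 to 55.0 CPM in air rats and 50.4 to 69.3 CPM in high-fat silica and 31.9 to 41.8 CPM in air rats. Silica and air rats overlapped in this sum on the high-fat diet at 3 months and on the regular diet at 9 months. Most of that sum was Siglec8, which averaged 53.6 CPM in high-fat silica and 28.0 CPM in air rats at 9 months. Other markers had lower means with silica in that pair: Ccr3 averaged 4.36 and 6.28 CPM, Il5ra 0.428 and 0.490, and Prg2 0.151 and 0.245. Silica and air rats overlapped in each of them. Il5ra rested on 13 and 19 counts in the whole groups and Prg2 on 6 and 10. On the regular diet at 9 months Ccr3 averaged 4.26 CPM in silica and 3.76 CPM in air rats. Il5ra averaged 0.367 and 0.393 CPM there, and Prg2 0.0944 and 0.402 CPM, on 3 and 14 counts. Rats overlapped in these markers too. Of the genes that define group 2 lymphocytes, Il13, Il5 and Il4 also had under 10 counts in every group. The other listed markers had more counts and did not move alike at 9 months. Areg averaged 3.63 CPM in regular-diet silica and 1.70 CPM in air rats, and 5.75 and 2.14 CPM on the high-fat diet. Ptgdr2 averaged 3.26 and 4.80 CPM on the regular and 3.41 and 5.37 CPM on the high-fat diet. For Rora these were 90.1 and 98.4 CPM, and 85.2 and 99.0 CPM. For Il1rl1 they were 19.5 and 15.9 CPM, and 15.1 and 13.5 CPM. Gata3 had 7.64 and 6.39 CPM, and 12.5 and 13.7 CPM. Other marker sums were lower with silica at 9 months. The 5 fibroblast markers summed to 330 to 442 CPM in regular-diet silica and 472 to 615 CPM in air rats, and to 339 to 419 CPM in high-fat silica and 617 to 651 CPM in air rats. Among these 5, Col1a2 had under 10 counts in every group. The 6 mast cell markers summed to 159 to 237 CPM in regular-diet silica and 251 to 367 CPM in air rats, and to 209 to 244 CPM in high-fat silica and 322 to 387 CPM in air rats. The 6 endothelial markers summed to 1837 to 2804 CPM in regular-diet silica and 2727 to 3995 CPM in air rats, which overlapped, and to 2257 to 2585 CPM in high-fat silica and 3358 to 3846 CPM in air rats. The part of these cell types in the members' changes, upward or downward, was not tested.

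For each member the genes with the most similar profile were named by the smallest root mean square distance between the 8 group means of log2 CPM, each gene centred on its own mean, among 12487 genes. The nearest to Retnla were Spp1 (distance 0.546), Slc26a4 (0.694) and Ccl2 (0.804). Chia had Kng1 (0.333), Cfi (0.426) and Dhrs9 (0.464). Chi3l1 had C3 (0.179), Mreg (0.184) and C4bpa (0.187), and Chit1 had Avpr1a (0.0374) and Mxra8 (0.0550). Arg1 had Msr1 (0.111), Mcoln3 (0.112) and Plet1 (0.145), and Mrc1 had Ahnak2 (0.0611), Xrcc5 (0.0907) and Cybb (0.105). Alox15 had Fam46b (0.298), Fam107a (0.300) and Gp6 (0.324). Ccl17 had Slc16a3 (0.148), Ticrr (0.148) and Icos (0.148), and Ccl22 had Slc7a11 (0.196), Mreg (0.214) and Fcgr2b (0.219). Mreg was thus near both Chi3l1 and Ccl22. These distances rest on 8 groups, and a gene with small changes has small distances to many others.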

How the data were processed

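Lung RNA was sequenced per rat. The authors deposited whole-number counts per gene, 1 table for 3 and 1 for 9 months. Per the submitters' processing notes, the build was Rnor_6.0 and the tools were HTSeq 0.6.1, TopHat2 2.0.9, Trimmomatic 0.35, SAMtools 0.1.19, bcl2fastq 2.19 and Bowtie2 2.2.9; the annotation and strand setting of the counting are not given in the sources used here. The kit was stranded, per the labels' protocols.

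From these counts, genes were filtered with filterByExpr, leaving 15234 genes at 3 months, 15276 at 9 months and 15759 over all 8 groups, and scaled by TMM. The 4 groups of a time entered 1 quasi-likelihood fit (edgeR 4.0.16, R 4.3.3), and the 8 groups 1 fit for the difference between times. P-values were Benjamini-Hochberg adjusted over all tested genes. The fit was checked on simulated counts. Alternatives were RLE scaling, no filter, DESeq2 1.42.0, only the groups compared, the legacy quasi-likelihood, the ribosomal RNA share as covariate, library sizes without Rnr1 and Rnr2, and each rat left out.

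The members and the gene lists were chosen with earlier results of these data known. The text names all members, the count of each list with at most 4 called genes by smallest p in each silica comparison, and the 3 genes nearest in profile to each member, of which 1 is not reported here. Ccl24 and Ackr2 were named beside these, after their values were seen. The labels give no batch or date.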

Additional observations from a re-analysis of the deposited data

Results flagged for a closer look

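Rats far from the rest of their group were looked for in 72 groups of values, 9 genes in 8 groups, and 8 such values were found. The cut-offs flag about 1 in 20 groups where values are independent and normally spread. These values are not independent, since 4 of the 8 came from 1 rat, and some rest on few counts. The number found therefore cannot be set against that rate. High-fat air rat 6 of 9 months stood apart for 4 genes: Retnla at 18.5 CPM (next rat 6.18), Chia at 187 (next 120.7), Chi3l1 at 131 (next 98.3) and Ccl22 at 0.873 (next 0.297, which is 4 against 2 counts). Regular-diet silica rat 4 of 3 months stood at 136 CPM for Retnla, with the next rat at 68.4. High-fat silica rat 1 of 3 months stood at 38.3 CPM for Arg1 (next 29.5). Regular-diet silica rat 1 of 9 months stood at 112.2 CPM for Alox15 (next 31.5). Regular-diet air rat 1 of 3 months stood at 0.579 CPM for Ccl22 (next 0.172, which is 3 against 1 counts).

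The silica effect differed between 9 and 3 months, by the test of that difference itself, for Retnla (log2 difference 2.87), Chia (2.48), Chi3l1 (0.56) and Chit1 (-0.76) on the regular diet. On the high-fat diet it differed for Retnla (3.25), Chia (3.12) and Chi3l1 (0.69).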

How the results depend on the processing

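No paired analysis was possible because each rat carries its own number and the replicate numbers used here only name rats. The counts of members called stayed within 1.5 times their main value under RLE scaling, without a filter, with the legacy quasi-likelihood and with Rnr1 and Rnr2 left out of library sizes, in all 12 comparisons. A covariate for the ribosomal RNA share left the diet comparison with 1 member called in air rats at 3 months (2 before), 0 in air rats at 9 months (2) and 0 in silica rats at 9 months (2). DESeq2 called 1 member for diet in silica rats at 9 months (2) and 1 for the difference of silica effects between diets at 9 months (0). A fit of only the 2 groups called 0 for diet in silica rats at 3 months (2). Leaving out each rat in turn gave 1 to 2 members for diet in air rats and 0 to 3 in silica rats at 3 months, 1 to 2 in silica rats at 9 months, and 0 to 1 for the difference of silica effects between diets at 9 months.

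Over all genes the covariate gave 92 calls for diet in air rats (449 before) at 3 months, 4561 for regular-diet silica rats against air (6885), 1 for diet in air rats (2325) and 1 in silica rats (537) at 9 months, and 284 for 9 against 3 months on the regular diet (1068). DESeq2 gave 209 for diet in silica rats at 3 months (107), and 1 (0) and 293 (167) for the difference between diets at 3 and 9 months. Fits of only the groups compared gave 761 and 59 for diet in air and silica rats at 3 months, and 471 for 9 against 3 months on the regular diet. Leaving out 1 rat gave 63 to 530 and 55 to 209 for diet in air and silica rats at 3 months, 260 to 724 for diet in silica rats and 72 to 274 for the difference between diets at 9 months, and 667 to 1338 and 1115 to 1908 for 9 against 3 months on the regular and the high-fat diet.

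The values that changed sign were all uncalled. With the covariate they were Chia 0.15 for diet in air rats at 9 months (main -0.15), Arg1 0.11 (-0.12) and Ccl22 -0.58 (0.06) for diet in silica rats at 9 months, and Alox15 0.24 (-0.02) for 9 against 3 months on the high-fat diet. The legacy fit gave Ccl17 -0.0026 (0.02) for the difference between diets at 9 months. Leaving out 1 rat gave these ranges: for diet in silica rats at 3 months, Retnla -0.30 to 0.26, Chia -0.45 to 0.037, Chit1 -0.019 to 0.11 and Alox15 -0.094 to 0.14; for diet in silica rats at 9 months, Chia -0.039 to 0.32, Chit1 -0.019 to 0.15, Chi3l1 -0.023 to 0.14 and Ccl22 -0.092 to 0.22. Retnla ranged from -0.37 to 0.31 for diet in air rats and Alox15 from -0.83 to 0.57 for silica at 9 months on the regular diet. For the difference between diets Mrc1 ranged from -0.18 to 0.022 at 3 months and Ccl17 from -0.14 to 0.22 at 9 months. For 9 against 3 months Mrc1 ranged from -0.20 to 0.0032 and Ccl17 from -0.17 to 0.87 on the regular diet, and Arg1 from -0.030 to 0.13 and Alox15 from -0.24 to 0.15 on the high-fat diet. The cause of these shifts was not tested. Among single called genes, Chit1 for silica on the high-fat diet at 3 months was also lost without a filter (adjusted p = 0.052) and with the covariate (0.079), Arg1 for diet in air rats at 3 months with the covariate (0.068), and Chi3l1 for 9 against 3 months on the regular diet with the covariate (0.11). Depth limits Ccl17 and Ccl22, with 0 to 21 counts in a library for Ccl17.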
